A study of Mus musculus with 13 samples.

Results

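Wnt signaling was read in 13 mouse tumors through 47 genes: 19 Wnt ligands, 10 Frizzled receptors (Fzd1 to Fzd10), the 2 co-receptors Lrp5 and Lrp6, the 3 effectors Ctnnb1, Lef1 and Tcf7, the 4 feedback targets Axin2, Nkd1, Rnf43 and Znrf3, the 3 R-spondin receptors Lgr4, Lgr5 and Lgr6, and the 6 secreted inhibitors Dkk1, Dkk2, Dkk3, Sfrp1, Sfrp2 and Wif1. The genes were chosen by name for their place in the pathway, with earlier results of these data known. All 47 were found among 55332 genes with values. The tumors were bulk RNA-seq samples of mouse NUT carcinoma (mNC), a squamous cancer, with (WT) or without (KO) the transcription factor Sox2. All 4 groups carried the NCT allele, on which Cre acts to start the tumors. The labels gave the 4 oral WT tumors as KRT14-Cre; NCT+/-, the 2 oral KO tumors as KRT4Cre; NCT+/-; Sox2fl/fl, the 4 pancreatic WT tumors as Pdx1-Cre; NCT+/-, and the 3 pancreatic KO tumors as Pdx1-Cre; NCT+/-; Sox2fl; fl. The study's methods name KRT14-Cre for both oral genotypes, a driver active in basal cells of oral mucosa, skin and salivary gland, and Pdx1-Cre acts in the pancreatic lineage, so the Cre driver and the site of the tumor cannot be told apart. Ages of the mice were not given in the labels. The labels number the tumors but do not say that each came from its own mouse, so that p-values measure the spread between these tumors. In bulk tumors, fewer cells of a type and less RNA per cell cannot be told apart.

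Wnt proteins are secreted, lipid-modified ligands that bind a Frizzled receptor together with Lrp5 or Lrp6 at the cell surface. In the canonical branch this stops the destruction of β-catenin, the product of Ctnnb1, which then joins the DNA-binding proteins Lef1 and Tcf7 and turns on targets such as Axin2 and Nkd1, themselves brakes on the pathway. In stratified epithelia Wnt signals act on basal progenitors, teeth and hair follicles, and the DNA-binding domain of Sox proteins belongs to the same high-mobility-group family as that of Lef1 and Tcf7.

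The deepest libraries were those of pancreatic KO tumors (89562790 to 120482829 estimated counts), followed by pancreatic WT (40964533 to 46134830) and oral WT (29394258 to 40420228), and the shallowest were the oral KO pair (11735315 and 20432164). Levels are given in CPM, counts scaled to a common library size, and comparisons between genes in CPM per kilobase (kb) of exon. Sox2 lay at 9.14 to 19.8 CPM in the oral WT tumors and 29.1 to 34.9 CPM in the pancreatic WT tumors, and at no more than 0.0364 CPM in any KO tumor, as the genotype labels state. Oral KO tumor 1 stood apart, with 59.5% of its counts in protein-coding genes against 84.5% to 91.7% in the other 12 tumors. The tumors labelled pancreatic had little acinar RNA, since the summed level of 8 acinar markers was 4.18 to 16.4 CPM in 6 of them and 294 CPM in pancreatic KO tumor 3. All 8 basal squamous markers were above 0 in every tumor, with sums of 3693 to 9118 CPM in oral and 10193 to 18055 CPM in pancreatic tumors.

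Stretches of DNA before the start sites of 3 members are printed because the results turn on those genes: Axin2, the member with the smallest adjusted p between WT tumors of the sites, Lef1, 1 of whose 4 windows held both motifs searched and is shown for that reason, and Wnt16, the ligand with the largest fold difference among those called between KO tumors of the sites. Each holds the 250 bases before a RefSeq start site (GRCm38.p6), read along the gene's strand, with any TCF/LEF core (CTTTGA or its reverse complement TCAAAG) and SOX core (CATTGT or its reverse complement ACAATG) in capitals. 
Axin2 (chr11:108920099-108920348, plus strand): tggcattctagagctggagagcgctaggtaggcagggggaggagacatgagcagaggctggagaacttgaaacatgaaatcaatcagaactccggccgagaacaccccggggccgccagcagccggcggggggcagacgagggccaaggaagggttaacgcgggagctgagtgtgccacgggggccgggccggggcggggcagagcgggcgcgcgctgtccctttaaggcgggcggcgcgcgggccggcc
Lef1 (chr3:131156044-131156293, plus strand, in an intron of the longer gene): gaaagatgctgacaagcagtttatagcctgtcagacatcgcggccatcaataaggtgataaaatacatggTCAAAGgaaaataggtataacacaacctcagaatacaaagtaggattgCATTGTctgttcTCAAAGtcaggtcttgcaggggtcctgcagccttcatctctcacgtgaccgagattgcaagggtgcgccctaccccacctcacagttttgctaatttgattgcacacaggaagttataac
Wnt16 (chr6:22287977-22288226, plus strand): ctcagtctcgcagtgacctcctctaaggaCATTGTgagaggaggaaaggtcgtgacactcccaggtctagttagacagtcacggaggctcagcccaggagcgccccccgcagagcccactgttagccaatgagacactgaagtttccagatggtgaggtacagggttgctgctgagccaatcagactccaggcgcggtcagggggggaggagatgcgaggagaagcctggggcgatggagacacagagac
The Axin2 window held neither core, the Lef1 window shown held 2 TCF/LEF cores and 1 SOX core, and the Wnt16 window held 1 SOX core. The other 3 Lef1 windows, which include those at the 5′ start of the gene, held 0 of either core. RefSeq windows were found for 33 of the 47 members, 42 windows in all. A TCF/LEF core lay in 11.9% of these windows against 13.8% of 32851 windows of all genes, and a SOX core in 9.52% against 10.7%. Besides Lef1, the members with a TCF/LEF core were Fzd1, Wnt5b, Wnt11 and Dkk1. A match is a description of the letters in the window and does not mark a binding site.

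Among the ligands, a small set carried most of the RNA. Wnt10a, Wnt4, Wnt5a, Wnt7b, Wnt10b and Wnt9a together made up 81.4% to 91.9% of the summed ligand level per kb in the 13 tumors. Wnt10a, a ligand of tooth and skin appendage development, was the highest ligand per kb in 8 tumors, Wnt4, known from kidney and ovary development, in 4, and Wnt5a, best known for β-catenin-independent signaling, in 1. At the other end, Wnt1 reached no more than 3 counts and Wnt8b no more than 5 counts in any tumor, and both fell under the count filter in every comparison. The summed ligand level was 46.5 to 64.1 CPM per kb in the oral WT tumors and 31.6 to 41.1 CPM per kb in the pancreatic WT tumors. The plot of ligand levels shows this order.

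**Figure D1:**
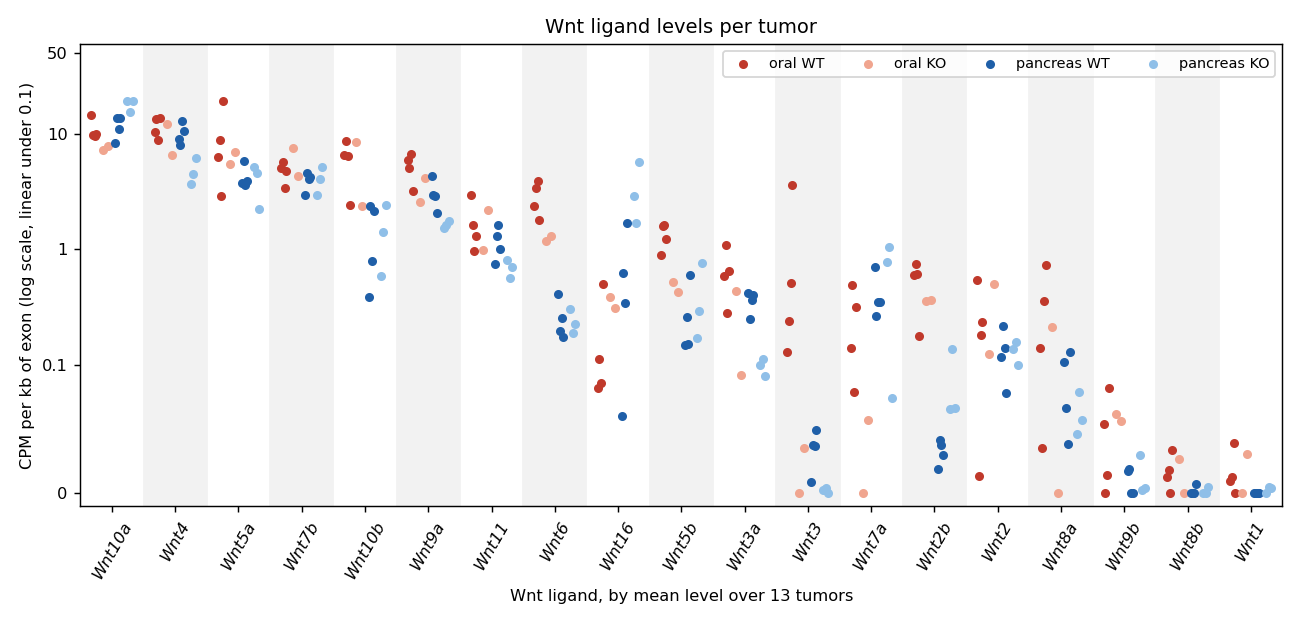
Level of each Wnt ligand in CPM per kb of exon (log scale, linear under 0.1), with 1 point per tumor and groups in color. By group mean Wnt10a and Wnt4 stand at the top in every group, Wnt6 and Wnt2b are higher in all oral than in all pancreatic tumors, and Wnt8b and Wnt1 lie near 0.

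Between WT tumors of the 2 sites, members of every layer of the pathway except the co-receptors were higher in the oral tumors. Of 45 members tested with edgeR's quasi-likelihood test (a call needs a Benjamini-Hochberg adjusted p below 0.05 with a log2 fold change beyond 1 in size), 18 were called higher and 0 lower in oral WT tumors, while 9.3% of 23164 genes were called higher and 7.24% lower. At an unadjusted p under 0.05 there were 25 members, beside 8527 of the 23164 genes. The adjusted p alone was passed by 21 members, beside 5482 genes. DESeq2 called 18 higher and 1 lower, the lower one being Lgr4, beside 10.7% higher and 8.66% lower of all genes. The median log2 fold change was 0.85 over the 45 members and 0.005 over all genes. The count fell to 11 without pancreatic WT tumor 1 or tumor 3, and 9 of the 18 held in every alternative in which they were tested: Wnt5b, Wnt6, Fzd4, Axin2, Dkk3 and Sfrp2 in 17, and Wnt2b, Lgr5 and Dkk1 in 16, since these lacked 10 counts in some tumor and dropped out where every tumor had to reach that count. In CPM, 15 of the 45 members had all oral WT tumors above all pancreatic WT tumors and 3 the reverse, against 13.8% and 13.9% of all genes tested. The plot of the 2 site comparisons shows every member tested.

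**Figure D2:**
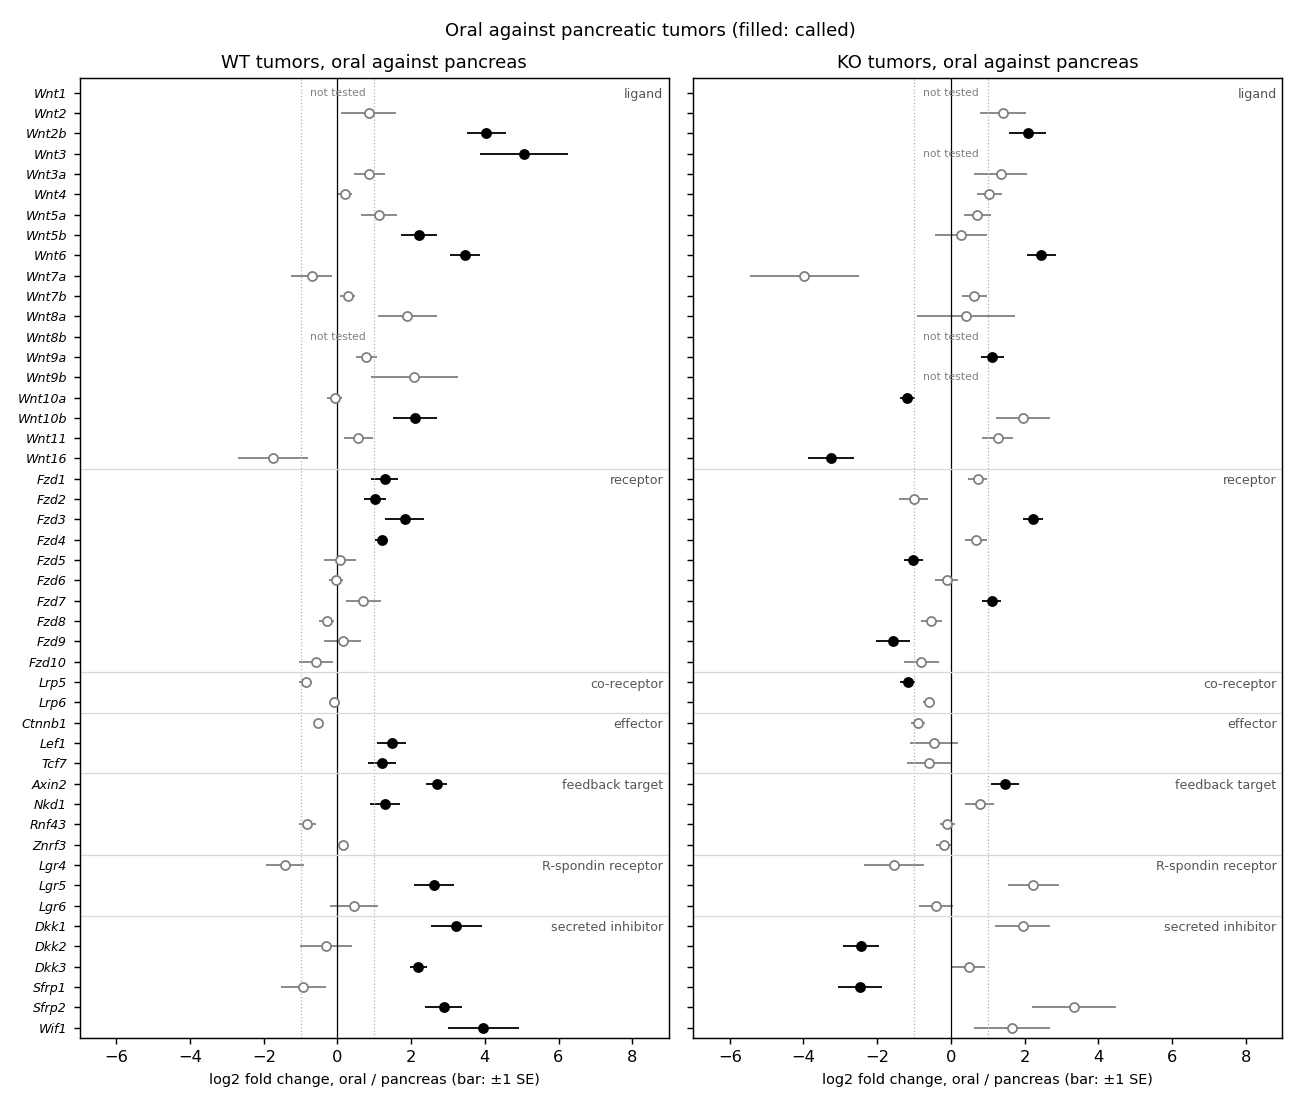
Log2 fold change of each member, oral over pancreatic, in WT tumors (left) and KO tumors (right), with bars of 1 SE and filled points for members called. In the WT panel all 18 filled points lie to the right of 0, while in the KO panel 6 lie to the right and 7 to the left.

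The ligands called higher in oral WT tumors were Wnt2b, Wnt3, Wnt5b, Wnt6 and Wnt10b. Wnt6, a ligand of surface ectoderm, was at 5.24, 7.43, 8.5 and 3.95 CPM in oral WT tumors and at 0.892, 0.434, 0.563 and 0.379 CPM in pancreatic WT tumors. Every oral tumor was above every pancreatic tumor, with a log2 fold change of 3.47 (SE 0.40, adjusted p = 0.00103). Wnt2b, which can signal through β-catenin, was at 2.5, 3.16, 2.59 and 0.743 CPM against 0.0787, 0.174, 0.158 and 0.126 CPM. Its groups did not overlap either, although oral WT tumor 4 was low, and its log2 fold change was 4.04 (SE 0.52, adjusted p = 0.00147).

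Wnt3, needed for gastrulation, was at 0.401, 0.743, 1.56 and 11.2 CPM in oral WT tumors and at 0.0262, 0.116, 0.113 and 0.151 CPM in pancreatic WT tumors. The groups did not overlap, but oral WT tumor 4 held most of the Wnt3 RNA, and the call (log2 fold change 5.06, SE 1.19, adjusted p = 0.0172) rose to an adjusted p of 0.0503 without pancreatic WT tumor 3. Without oral WT tumor 4 the log2 fold change of Wnt3 was 3.12, with an adjusted p of 0.00875. Wnt5b, a relative of Wnt5a, was at 2.36, 4.21, 4.28 and 3.3 CPM against 0.393, 0.694, 0.406 and 1.59 CPM. The lowest oral tumor was above the highest pancreatic one (log2 fold change 2.21, SE 0.48, adjusted p = 0.0116). Wnt10b, a ligand of hair follicle and mammary development, was at 22.3, 29.2, 22.1 and 8.19 CPM against 1.31, 8.1, 2.7 and 7.32 CPM, so that the low oral tumor 4 nearly met the highest pancreatic tumor (log2 fold change 2.10, SE 0.59, adjusted p = 0.0346).

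The 3 most abundant ligands per kb, Wnt10a, Wnt4 and Wnt5a, were not called between WT tumors of the sites with all tumors. Wnt10a was at 35.9, 24.2, 23.5 and 24.8 CPM in oral WT tumors and at 20.6, 33.7, 27.0 and 34.0 CPM in pancreatic WT tumors. These ranges overlapped fully, with a log2 fold change of -0.08 (SE 0.20, adjusted p = 0.82). Wnt6 and Wnt10a are neighbors on chromosome 1 (GRCm38), on the same strand with 6193 bases between the annotated genes, yet only Wnt6 was called between WT tumors of the sites. Wnt4 was at 43.2, 55.9, 37.1 and 57.6 CPM against 38.0, 33.3, 54.7 and 44.2 CPM, again with overlapping groups (log2 fold change 0.19, SE 0.20, adjusted p = 0.535). Wnt5a was at 49.7, 68.9, 22.8 and 150.0 CPM against 29.5, 45.5, 28.04 and 30.4 CPM, with oral WT tumor 4 far above the rest and a log2 fold change of 1.14 (SE 0.49, adjusted p = 0.127). Without oral WT tumor 3, its lowest tumor, Wnt5a was called higher in oral WT tumors.

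Of the Frizzled receptors, 4 were called higher in oral WT tumors and 0 lower. Fzd4, also the receptor for the non-Wnt ligand Norrin, was at 21.3, 17.9, 24.1 and 15.9 CPM in oral WT tumors and at 9.42, 8.82, 8.0 and 8.51 CPM in pancreatic WT tumors. Both groups were tight and did not overlap (log2 fold change 1.20, SE 0.17, adjusted p = 0.00229). Fzd3, known from axon guidance, was at 24.8, 19.1, 21.9 and 70.1 CPM against 5.01, 10.1, 5.86 and 17.95 CPM. The groups did not overlap, although the lowest oral and the highest pancreatic tumor were close (log2 fold change 1.82, SE 0.54, adjusted p = 0.0395).

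Fzd1 was at 109, 101, 262 and 81.7 CPM in oral WT tumors and at 45.5, 60.9, 48.8 and 75.7 CPM in pancreatic WT tumors. Oral WT tumor 3 was far above the others, and the groups did not overlap (log2 fold change 1.28, SE 0.37, adjusted p = 0.0369). Fzd2 was at 43.4, 47.4, 22.6 and 31.2 CPM against 13.5, 22.3, 12.0 and 24.7 CPM. Here the groups overlapped, and the log2 fold change of 1.01 (SE 0.29, adjusted p = 0.0368) sat at the edge of the fold threshold. Of the short exact stretches of the Fzd2 transcripts, 1.90% also occur in other genes, Fzd1 and Fzd7 first among them, so a small part of its reads could be split among them. Fzd6, the highest Frizzled per kb over all tumors, was at 139, 145, 94.8 and 188 CPM against 155, 133, 154 and 140.3 CPM and Fzd7 at 212, 78.7, 182 and 119 CPM against 54.1, 175, 38.7 and 102 CPM, with neither called (adjusted p = 0.917 and 0.331).

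None of the co-receptors nor β-catenin was called between WT tumors of the sites. Lrp5 was at 147, 105, 95.6 and 126 CPM in oral WT tumors and at 221, 270.0, 185 and 194 CPM in pancreatic WT tumors. All oral tumors were lower, with an adjusted p of 0.00759, but the log2 fold change of -0.86 (SE 0.17) did not reach the fold threshold. Lrp6 overlapped, at 193, 169, 160.3 and 159 CPM against 188, 206, 150.1 and 191 CPM (log2 fold change -0.10, SE 0.12, adjusted p = 0.605). Ctnnb1, the highest of all 47 members per kb, was at 490.3, 471, 476 and 416 CPM against 641, 642, 645 and 742 CPM. All oral tumors were below all pancreatic ones, at a log2 fold change of -0.52 (SE 0.12, adjusted p = 0.0139), also short of the fold threshold.

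Both DNA-binding partners of β-catenin among the members were called higher in oral WT tumors. Lef1 was at 3.12, 3.31, 6.81 and 9.14 CPM in oral WT tumors and at 1.52, 1.97, 2.52 and 2.12 CPM in pancreatic WT tumors. The groups did not overlap (log2 fold change 1.47, SE 0.40, adjusted p = 0.0267). Tcf7 was at 17.96, 13.8, 34.6 and 16.7 CPM against 5.11, 10.2, 7.28 and 14.1 CPM, with a small overlap (log2 fold change 1.20, SE 0.37, adjusted p = 0.0468), and its call held in 8 of 17 alternatives.

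Axin2, a scaffold of the β-catenin destruction complex and a widely used readout of canonical signaling, was at 13.3, 23.4, 13.8 and 23.6 CPM in oral WT tumors and at 2.75, 2.11, 3.16 and 3.46 CPM in pancreatic WT tumors. The lowest oral tumor stood well above the highest pancreatic tumor, with a log2 fold change of 2.69 (SE 0.28, adjusted p = 0.000721). Nkd1, which binds Dishevelled and dampens the pathway, was at 2.96, 5.26, 2.78 and 8.38 CPM against 1.91, 1.5, 1.74 and 2.85 CPM. Its groups just overlapped (log2 fold change 1.28, SE 0.40, adjusted p = 0.0476), and the call held in 9 of 17 alternatives. Rnf43, a ubiquitin ligase that removes Frizzled from the surface, was lower in every oral WT tumor, at 15.8, 15.2, 10.3 and 12.6 CPM against 32.7, 19.5, 24.3 and 18.8 CPM (log2 fold change -0.82, SE 0.23, adjusted p = 0.0294, under the fold threshold). Its relative Znrf3 was at 43.6, 47.1, 51.8 and 37.4 CPM against 43.7, 43.0, 38.6 and 39.2 CPM, with overlapping groups.

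Of the R-spondin receptors, Lgr5, known from intestinal and hair follicle stem cells, was called. It was at 2.45, 1.39, 0.969 and 3.74 CPM in oral WT tumors and at 0.131, 0.521, 0.338 and 0.404 CPM in pancreatic WT tumors. The groups did not overlap (log2 fold change 2.62, SE 0.54, adjusted p = 0.00889), but the level per kb was low, with a mean of 0.208 CPM per kb in oral WT tumors. Lgr4, the most abundant of the 3 per kb, varied strongly within every group. It was at 66.3, 64.9, 129 and 129 CPM in oral WT tumors, 43.8 and 208 CPM in oral KO tumors, 90.5, 378, 141 and 449.9 CPM in pancreatic WT tumors, and 142, 472 and 553 CPM in pancreatic KO tumors. In each group the highest tumor was well above the lowest. With edgeR and all tumors, Lgr4 was not called between WT tumors of the sites (adjusted p = 0.0761) or KO tumors (adjusted p = 0.186), but it was called lower in oral WT tumors without pancreatic WT tumor 1. Lgr6 was at 7.27, 5.76, 7.44 and 10.1 CPM against 1.13, 10.8, 1.83 and 8.96 CPM in WT tumors, with overlapping groups.

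Of the 6 secreted inhibitors, 4 were called higher in oral WT tumors. Dkk3, a divergent Dickkopf protein, was at 70.7, 85.8, 49.7 and 51.2 CPM in oral WT tumors and at 11.04, 11.5, 15.2 and 18.7 CPM in pancreatic WT tumors. The gap between the groups was wide (log2 fold change 2.20, SE 0.24, adjusted p = 0.000813). Sfrp2, which binds Wnt ligands, was at 8.13, 15.3, 15.6 and 16.5 CPM against 1.05, 1.22, 1.13 and 4.22 CPM, again without overlap (log2 fold change 2.89, SE 0.51, adjusted p = 0.00491). Wif1, another Wnt-binding protein, was at 8.31, 73.9, 18.3 and 27.2 CPM against 1.52, 0.116, 2.64 and 3.94 CPM. Tumors of both groups varied widely, yet the groups did not overlap (log2 fold change 3.96, SE 0.96, adjusted p = 0.019).

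Dkk1, which blocks Lrp5 and Lrp6, was scarce, at 1.4, 0.464, 2.16 and 0.348 CPM in oral WT tumors and 0.184, 0.0579, 0.0902 and 0.126 CPM in pancreatic WT tumors. Even so the groups did not overlap (log2 fold change 3.22, SE 0.69, adjusted p = 0.0104). Sfrp1 was at 11.3, 31.9, 6.69 and 23.9 CPM against 31.5, 8.68, 45.5 and 54.8 CPM and was not called (adjusted p = 0.312).

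Fibroblast markers differed between the sites as well, while the sums of endothelial and of leukocyte markers overlapped between WT tumors of the sites. The summed level of 9 fibroblast markers was 8892 to 19308 CPM in oral WT tumors and 1223 to 2371 CPM in pancreatic WT tumors. Of the 9, 7 were called higher in oral WT tumors, beside 9.3% of all genes. In KO tumors the sums were 8873 and 8917 CPM in oral and 2307 to 3924 CPM in pancreatic tumors. The part of stromal cells in the site differences was not tested. The plot of marker sums shows all 7 lists.

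**Figure D3:**
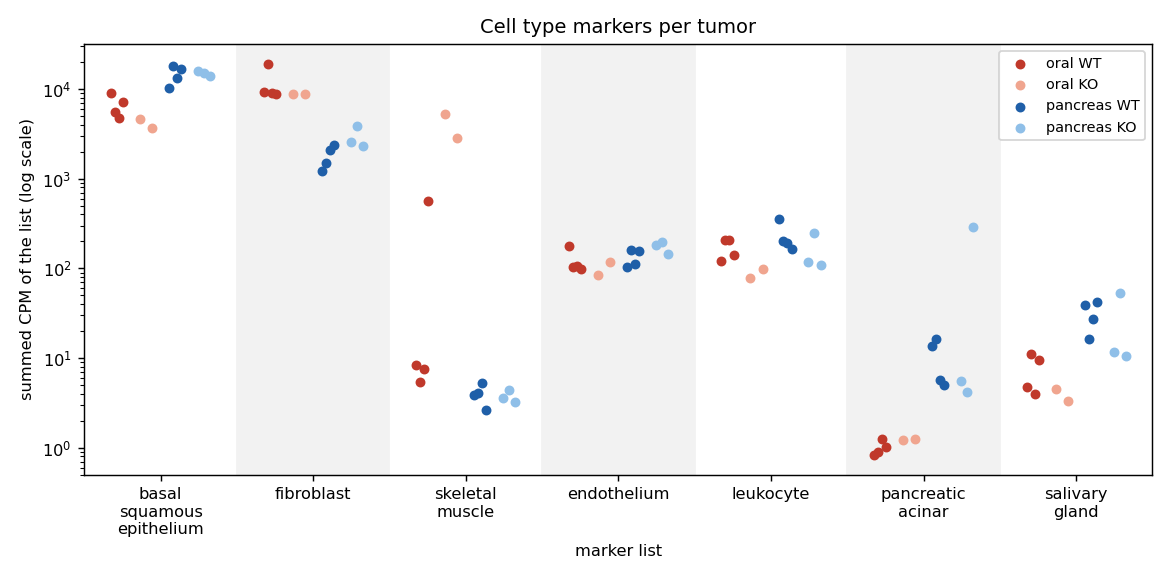
Summed CPM of 7 lists of cell type markers on a log scale, 1 point per tumor. Fibroblast sums are higher in all oral than in all pancreatic tumors, and skeletal muscle sums are highest in the 2 oral KO tumors, at 5235 and 2872 CPM.

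In KO tumors members were called in both directions between the sites, as were genes at large (a comparison added after the data had been seen). Of 43 members tested, 6 were called higher in oral KO tumors (Wnt2b, Wnt6, Wnt9a, Fzd3, Fzd7 and Axin2) and 7 lower (Wnt10a, Wnt16, Fzd5, Fzd9, Lrp5, Dkk2 and Sfrp1), beside 14.6% higher and 10.7% lower of 24787 genes. The median log2 fold change was 0.41 over the 43 members, of which 23 were above 0. It was -0.004 over all genes and -0.28 over the protein-coding ones. In CPM, 15 of the 43 members had both oral KO tumors above all pancreatic KO tumors and 13 the reverse. The shares were 27.7% and 34.5% of all genes tested, and 19.2% and 43.5% of the protein-coding genes. Of the 18 members called in WT tumors, 17 were tested in KO tumors, and 14 of these had a log2 fold change above 0. The 4 called again were Wnt2b, Wnt6, Fzd3 and Axin2. The matching shares of all genes called in WT tumors were not computed, so these counts have no background to be set against. Fzd2, Lef1 and Tcf7 were below 0. A call in WT tumors and none in KO tumors does not show a difference between the genotypes, which the interaction term tests.

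Wnt6 was at 2.61 and 2.84 CPM in oral KO tumors and at 0.666, 0.415 and 0.496 CPM in pancreatic KO tumors. The groups stayed apart (log2 fold change 2.45, SE 0.40, adjusted p = 0.0108), and the Wnt6 and Fzd3 calls were the only ones of the 13 to hold in all 14 alternatives. Fzd3 was at 27.7 and 32.6 CPM against 5.76, 8.86 and 5.78 CPM (log2 fold change 2.23, SE 0.28, adjusted p = 0.00738). Axin2 was at 9.77 and 8.51 CPM in oral KO tumors and at 3.04, 4.88 and 2.54 CPM in pancreatic KO tumors, without overlap (log2 fold change 1.47, SE 0.38, adjusted p = 0.0315). Wnt2b was at 1.49 and 1.53 CPM against 0.275, 0.576 and 0.28 CPM (log2 fold change 2.08, SE 0.50, adjusted p = 0.0266).

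On the other side, Wnt16, known for its role in cortical bone, was at 1.68 and 1.35 CPM in oral KO tumors and at 12.6, 7.38 and 25.1 CPM in pancreatic KO tumors. All pancreatic KO tumors were higher (log2 fold change -3.25, SE 0.62, adjusted p = 0.0157). Wnt10a was at 18.1 and 19.2 CPM against 47.6, 38.4 and 47.8 CPM, with a clear gap between the groups (log2 fold change -1.18, SE 0.19, adjusted p = 0.0111). Sfrp1 was at 17.2 and 6.29 CPM against 36.5, 92.6 and 76.1 CPM, with all pancreatic tumors higher (log2 fold change -2.47, SE 0.59, adjusted p = 0.0279). Dkk2 and Lrp5 followed with log2 fold changes of -2.44 (SE 0.48, adjusted p = 0.0163) and -1.17 (SE 0.21, adjusted p = 0.013).

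Loss of Sox2 in oral tumors was set against WT to ask which members moved with the genotype. In oral tumors 1 member, Fzd2, was called lower and 0 higher in KO of 45 tested, beside 8.81% of 22342 genes called higher and 2.89% called lower. Unadjusted, 7 of the 45 members had p under 0.05, beside 7913 of the 22342 genes. DESeq2 called 4 members lower (Wnt3, Wnt5b, Fzd2 and Dkk3) and 0 higher, beside 6.26% of all genes lower and 11.7% higher. The median log2 fold change was -0.43 over the 45 members, of which 34 were below 0. It was -0.003 over all genes, 50.1% of which were below 0, and -0.21 over the 16352 protein-coding genes, 60.9% of which were below 0. Over the other pathway genes the median was -0.38, with 46 of 56 below 0. Fzd2 was at 43.4, 47.4, 22.6 and 31.2 CPM in oral WT tumors and at 12.0 and 8.08 CPM in oral KO tumors. Both KO tumors lay below every WT tumor, with a log2 fold change of -1.66 (SE 0.36, adjusted p = 0.0314). The call was lost without oral WT tumor 1 (adjusted p = 0.0679), oral WT tumor 2 (0.0802), oral KO tumor 1 (0.0791) or oral KO tumor 2 (0.151), and over all alternatives the adjusted p ranged from 0.000221 to 0.151. The share of all genes called higher likewise moved between 0.0861% without oral WT tumor 2 and 13.9% in a single fit of all 13 tumors. The summed level of 9 skeletal muscle markers was 5235 and 2872 CPM in the oral KO tumors, 564 CPM in oral WT tumor 4 and at most 8.45 CPM in the other oral WT tumors, and the part of muscle RNA or of the low protein-coding share of oral KO tumor 1 in these results was not tested.

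In CPM, 13 of the 45 members were lower in both oral KO tumors than in every oral WT tumor, and 1 was higher. Over all genes tested the shares were 29.3% lower and 20.2% higher. Over the protein-coding genes they were 37.1% lower and 10.3% higher. Fzd2 was the only one of the 14 that passed the adjusted test. The 13 were the ligands Wnt3, Wnt5b, Wnt6, Wnt7a and Wnt10a, the receptors Fzd2 and Fzd5, both co-receptors, Ctnnb1, the targets Axin2 and Znrf3, and the inhibitor Dkk3. The 1 above the WT range was the feedback target Rnf43, at 16.2 and 16.2 CPM in oral KO tumors against 10.3 to 15.8 CPM in oral WT tumors (log2 fold change 0.45, SE 0.24, adjusted p = 0.226).

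Of the targets, Axin2 was at 9.77 and 8.51 CPM in oral KO tumors against the 13.3 to 23.6 CPM of oral WT tumors (log2 fold change -0.83, SE 0.33, adjusted p = 0.123). Znrf3 was at 25.8 and 33.2 CPM against 37.4 to 51.8 CPM (log2 fold change -0.43, SE 0.22, adjusted p = 0.2). Nkd1, at 1.86 and 3.46 CPM, overlapped the WT range (adjusted p = 0.418). Among the inhibitors, Dkk3 was at 15.5 and 38.0 CPM against 49.7 to 85.8 CPM (log2 fold change -1.08, SE 0.39, adjusted p = 0.098). Sfrp2 was at 36.7 and 9.02 CPM, Wif1 at 33.0 and 3.53 CPM and Dkk1 at 0.372 and 0.473 CPM in oral KO tumors. Those 3 inhibitors overlapped the WT range, and oral KO tumors 1 and 2 stood far apart in Sfrp2 and Wif1.

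Of the ligands, Wnt5b was at 1.4 and 1.13 CPM in oral KO tumors against 2.36 to 4.28 CPM (log2 fold change -1.32, SE 0.44, adjusted p = 0.0806). Wnt6 had a log2 fold change of -1.03 (SE 0.43, adjusted p = 0.131). Wnt3 counted 0 and 3 reads in the oral KO tumors, so no fold is given. The abundant ligands overlapped between the genotypes, with Wnt4 at 50.6 and 27.4 CPM and Wnt5a at 43.2 and 54.7 CPM in oral KO tumors. Wnt10b, at 29.1 and 8.01 CPM, and Wnt3a, at 1.21 and 0.255 CPM, overlapped as well. In oral WT tumors Wnt3a was at 1.63, 3.03, 0.781 and 1.81 CPM.

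At the cell surface, Fzd1 was at 130.3 and 88.8 CPM, Fzd4 at 19.1 and 12.1 CPM, Fzd6 at 54.5 and 108 CPM and Fzd7 at 75.4 and 112 CPM in oral KO tumors, each overlapping its WT range. Lrp5 was at 72.1 and 88.8 CPM and Lrp6 at 124 and 144 CPM, below all oral WT tumors but by log2 fold changes of -0.38 (SE 0.22, adjusted p = 0.247) and -0.17 (SE 0.17, adjusted p = 0.518). Ctnnb1 was at 286 and 320.1 CPM against 416 to 490.3 CPM (log2 fold change -0.43, SE 0.19, adjusted p = 0.143). Its partner Lef1, at 4.28 and 4.48 CPM, lay within the range of the oral WT tumors, and its log2 fold change was -0.18 (SE 0.52). Tcf7, at 11.2 and 14.2 CPM, overlapped too, as did Lgr5, at 1.3 and 2.11 CPM (adjusted p = 0.896), and Lgr6, at 10.8 and 5.28 CPM (adjusted p = 0.678).

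In pancreatic tumors 1 member, Wnt3a, was called lower and 0 higher in KO of 42 tested, beside 0.337% higher and 0.292% lower of 24653 genes. Unadjusted, 10 members had p under 0.05, beside 3916 of the 24653 genes. DESeq2 called Wnt3a and Wnt4 lower and Lef1 higher, beside 2.91% of all genes lower and 1.6% higher. The median log2 fold change was 0.09 over the 42 members and 0.02 over all genes. Wnt3a, a prototype of canonical Wnt ligands, was at 1.15, 0.694, 1.01 and 1.11 CPM in pancreatic WT tumors and at 0.275, 0.311 and 0.253 CPM in pancreatic KO tumors. The groups did not overlap, and the log2 fold change was -1.84 (SE 0.31, adjusted p = 0.0491). The call was lost when any 1 of the 7 tumors was left out, with log2 fold changes between -1.98 and -1.77. The groups of WT and KO differed in depth, and after all libraries were thinned to the smallest the log2 fold change was -2.18, with an adjusted p of 0.0568.

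In CPM, 5 of the 42 members tested lay above and 5 below all pancreatic WT tumors in the pancreatic KO tumors, against 7.56% and 7.93% of all genes tested, and Wnt3a was the only one of these that passed the adjusted test. Wnt4 was at 15.4, 18.8 and 25.7 CPM in pancreatic KO tumors, below the 33.3 to 54.7 CPM of pancreatic WT tumors (log2 fold change -1.11, SE 0.23, adjusted p = 0.0756). Wnt10a was at 47.6, 38.4 and 47.8 CPM against 20.6 to 34.0 CPM, all KO tumors being higher (log2 fold change 0.62, SE 0.18, adjusted p = 0.164). Lef1 was at 3.45, 12.3 and 3.37 CPM against 1.52 to 2.52 CPM, with KO tumor 2 highest (log2 fold change 1.63, SE 0.49, adjusted p = 0.161). Axin2 was at 3.04, 4.88 and 2.54 CPM and overlapped the WT range of 2.11 to 3.46 CPM (log2 fold change 0.26, SE 0.31, adjusted p = 0.732). Fzd6 was at 83.1, 84.0 and 113 CPM, below the 133 to 155 CPM of WT tumors (log2 fold change -0.66, SE 0.14, adjusted p = 0.0817). Wnt16 had the largest log2 fold change, 2.34 (SE 0.91, adjusted p = 0.273), with KO tumors at 12.6, 7.38 and 25.1 CPM and WT tumors at 0.262 to 7.35 CPM, so that the groups were barely apart. The plots of genotype changes and of the levels of 9 members show these values.

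Most members described in the WT tumors overlapped between pancreatic KO and WT tumors. Among the ligands, Wnt5a was at 40.7, 36.2 and 17.6 CPM, Wnt5b at 0.453, 0.784 and 2.04 CPM and Wnt10b at 2.02, 4.81 and 8.32 CPM in pancreatic KO tumors. Wnt3 counted 0 to 1 reads there against 1 to 6 in pancreatic WT tumors and was not tested. Of the receptors, Fzd1 was at 55.6, 84.1 and 70.5 CPM, Fzd4 at 10.6, 11.4 and 8.73 CPM and Fzd7 at 35.3, 47.5 and 54.7 CPM, and Lrp5 was at 219, 197 and 158 CPM and Lrp6 at 206, 229.9 and 203 CPM. Ctnnb1 was at 547, 567 and 663 CPM, near its WT range of 641 to 742 CPM (log2 fold change -0.19, SE 0.12, adjusted p = 0.506). Tcf7 differed more among the KO tumors, at 7.08, 22.3 and 31.1 CPM, with a log2 fold change of 1.13 (SE 0.51, adjusted p = 0.337).

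None of the feedback targets, R-spondin receptors or inhibitors was called in pancreatic KO tumors. Nkd1 was at 1.57, 1.73 and 1.67 CPM, Rnf43 at 16.5, 18.2 and 20.1 CPM and Znrf3 at 36.2, 31.2 and 40.2 CPM. Lgr5 was at 0.124, 0.461 and 0.578 CPM and Lgr6 at 9.2, 16.3 and 8.06 CPM. Dkk3 was at 15.3, 28.6 and 16.9 CPM, Sfrp2 at 0.222, 3.73 and 3.22 CPM, Wif1 at 4.75, 11.5 and 1.97 CPM and Dkk1 at 0.213, 0.0807 and 0.0541 CPM. Wif1 had the largest log2 fold change of the inhibitors tested, 1.54 (SE 0.95, adjusted p = 0.479), with KO tumor 2 highest.

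**Figure D4:**
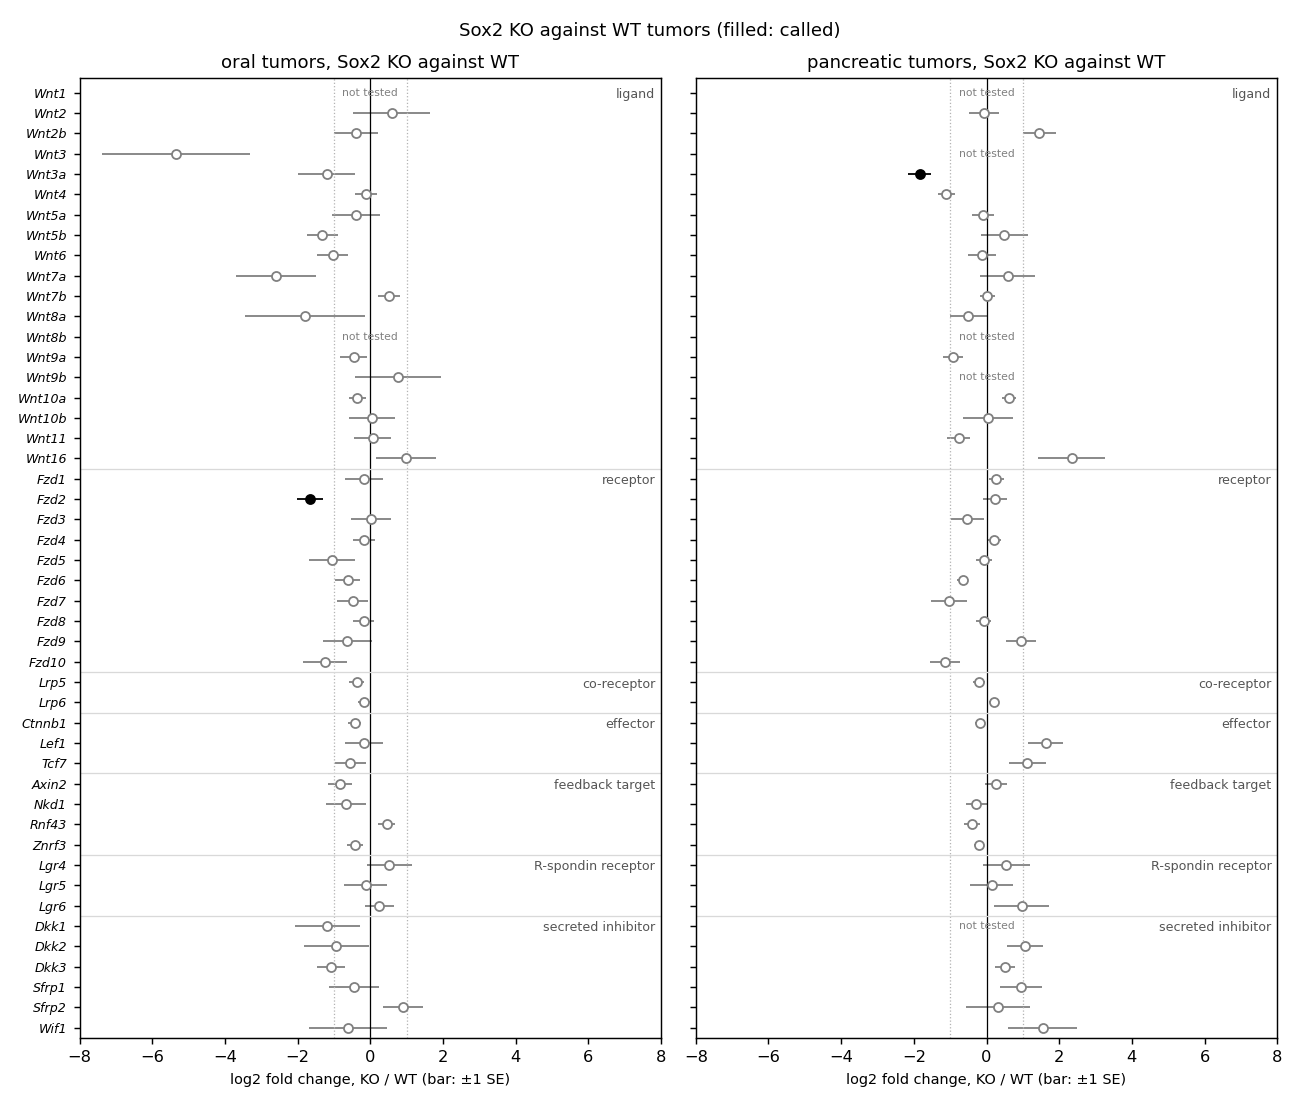
Log2 fold change of each member, KO over WT, in oral tumors (left) and pancreatic tumors (right), with bars of 1 SE and filled points for members called. Fzd2 is the only filled point at left and Wnt3a the only one at right, both below 0.

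**Figure D5:**
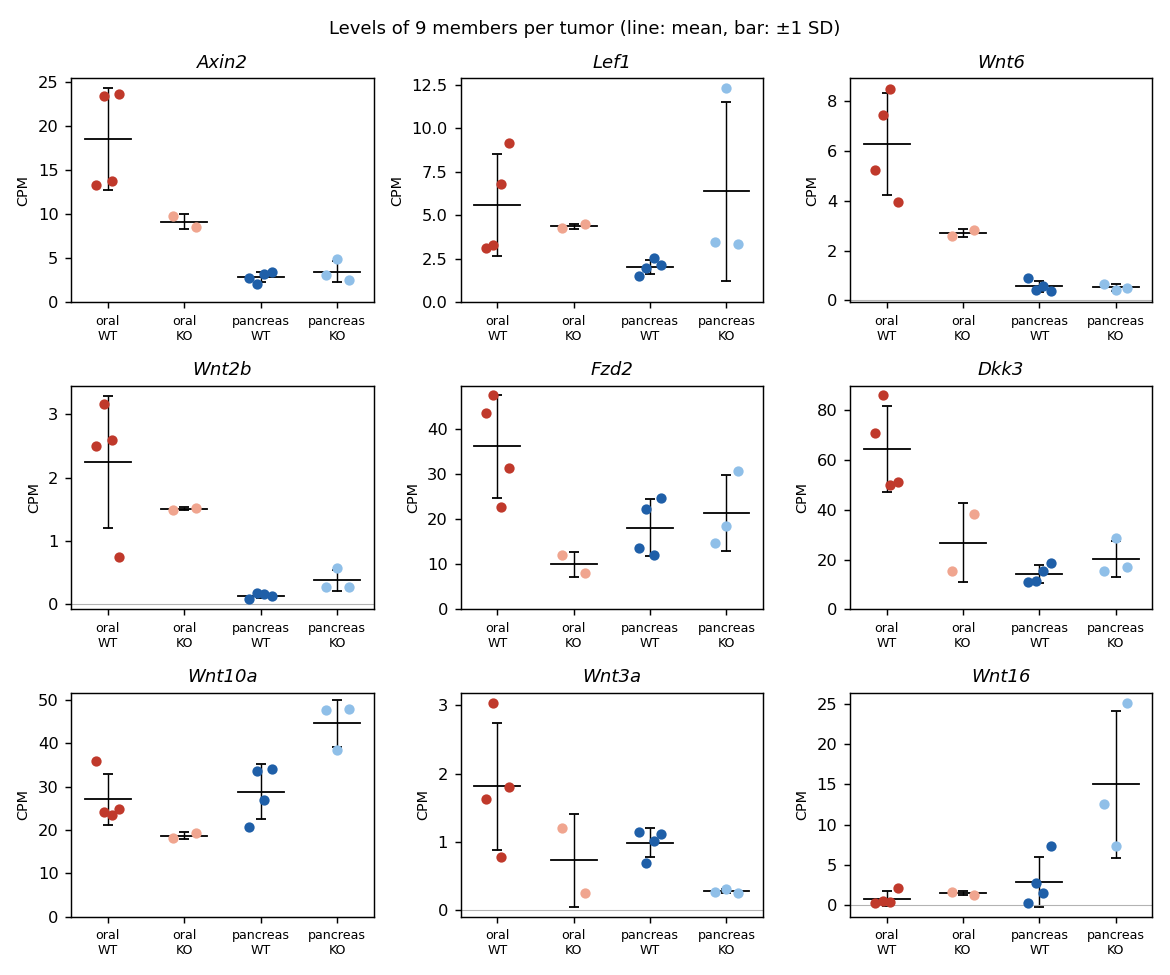
CPM of 9 members in every tumor, with the group mean as a line and 1 SD as a bar. Axin2, Wnt6 and Wnt2b are higher in all oral tumors, Fzd2 falls in oral KO tumors, and Wnt10a is highest in pancreatic KO tumors.

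The genotype effect was compared between the sites with an interaction term fitted over all 13 tumors, which shares the control tumors of the comparisons above. The change from WT to KO was called lower in oral than in pancreatic tumors for 3 of 45 members and higher for 0. Of 25836 genes, 4.85% were called lower and 7.41% higher. At an unadjusted p under 0.05 there were 11 members, beside 8776 of the 25836 genes. DESeq2 called 4 members lower and 0 higher, beside 7.75% lower and 10.6% higher of all genes. The median log2 difference was -0.44 over the 45 members, of which 34 were below 0. It was -0.03 over all genes and -0.28 over the protein-coding genes, 61.7% of which were below 0. The 3 members called lower with edgeR were Fzd2 (log2 difference -1.96, SE 0.52, adjusted p = 0.0293), Dkk3 (-1.65, SE 0.51, adjusted p = 0.0487) and Wnt10a (-1.04, SE 0.30, adjusted p = 0.0387). Fzd2 was lower in oral KO tumors and overlapped between genotypes in pancreatic tumors, at 14.8, 18.4 and 30.8 CPM in pancreatic KO tumors. Wnt10a had a log2 fold change of -0.36 (SE 0.24) with Sox2 loss in oral tumors and 0.62 (SE 0.18) in pancreatic tumors. The interaction of Axin2 was -1.17 (SE 0.46, adjusted p = 0.0973) with edgeR and was not called. With DESeq2 Axin2 was called lower, shrunken or not. Of the 21 alternatives, the calls held in 13 for Fzd2, 8 for Wnt10a and 7 for Dkk3.

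The other genes of the pathway, 59 in a list set beside the members, gave 1 called higher and 2 called lower of 56 tested in oral KO tumors. In pancreatic KO tumors 0 of 56 were called with edgeR. There 9 had an unadjusted p under 0.05, beside 3916 of the 24653 genes. Over all genes the shares were 8.81% higher and 2.89% lower in oral and 0.337% higher and 0.292% lower in pancreatic KO tumors. Dkk4, a secreted inhibitor of Lrp5 and Lrp6, was at 0.745 and 2.18 CPM in oral KO tumors and at 0.267, 0.309, 0.0625 and 0.209 CPM in oral WT tumors. Both KO tumors were higher (log2 fold change 2.97, SE 0.65, adjusted p = 0.0319), although WT tumors held only 2 to 12 counts. Tcf7l1, the TCF member best known as a repressor, was at 17.0 and 18.05 CPM against 30.6, 41.7, 46.7 and 46.9 CPM. Both KO tumors were lower (log2 fold change -1.06, SE 0.25, adjusted p = 0.0359). Ccnd1, the gene of cyclin D1, was at 44.1 and 55.1 CPM against 175, 121, 210.3 and 89.7 CPM, without overlap (log2 fold change -1.42, SE 0.38, adjusted p = 0.0493). The calls of Dkk4, Tcf7l1 and Ccnd1 were not followed through the alternative runs. In those runs the share of all genes called lower in oral KO tumors ranged from 0.0489% to 6.26%.

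For the release of ligands, Porcn, the enzyme that acylates Wnt proteins, and Wls, their carrier to the surface, were read in every tumor. Porcn was at 38.2, 41.4, 66.9 and 30.4 CPM in oral WT tumors, 45.8 and 41.2 CPM in oral KO tumors, 8.81, 9.72, 9.38 and 10.1 CPM in pancreatic WT tumors, and 16.7, 12.2 and 10.5 CPM in pancreatic KO tumors. Oral tumors were higher in both genotypes (log2 fold change 2.23, SE 0.24, adjusted p = 0.000802 in WT tumors and 1.81, SE 0.25, adjusted p = 0.00852 in KO tumors). Wls was at 169, 173, 181 and 110.1 CPM in oral WT tumors and 69.6 and 84.5 CPM in oral KO tumors, without overlap but not called (log2 fold change -0.86, SE 0.25, adjusted p = 0.0613), and at 125, 113, 135 and 131 CPM in pancreatic WT and 101, 117 and 146 CPM in pancreatic KO tumors, which overlapped. Between WT tumors of the sites, 11 other pathway genes of 55 tested were called higher in oral tumors and 1 lower, beside 9.3% and 7.24% of all genes.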

How the data were processed

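RNA was measured by bulk RNA-seq in 13 tumors. Per the labels and the submitters' processing notes, the authors trimmed reads with Trim Galore 0.6.10, checked them with FastQC 0.12.1 and quantified transcripts with kallisto 0.50.0 against GRCm38, and the study's methods name tximport and GENCODE annotation. The authors deposited a table of estimated counts per gene, of which 27.3% of the values were not whole. These were rounded here. Of 56085 rows, 55332 had values, and 55141 identifiers took symbols and exon lengths from GENCODE M21, an earlier release than the one the study names. Genes that reached 10 counts in 2 or more tumors of a comparison were kept, normalized (TMM) and tested with edgeR 4.0.16 (robust quasi-likelihood test, R 4.3.3) over all genes, and p was adjusted by Benjamini-Hochberg. A call needs an adjusted p below 0.05 with a log2 fold change beyond 1 in size. The SE is the log2 fold change over the square root of F. The precision of scarce genes is limited by depth, from 11735315 counts in the shallowest library. DESeq2 1.42.0 and apeglm 1.24.0 were alternatives, and the pipeline was tested on simulated data. Values in every tumor are given for members called in a planned comparison (up to 20), the 3 highest per kb of each role, and Axin2, Lef1, Nkd1 and Lgr5, and for other pathway genes called in a KO against WT comparison, with Porcn and Wls. A few further members are named with values in the comparison of KO tumors, which was added after the data had been seen. The members and lists were chosen with earlier results of these data known. Promoter windows come from RefSeq (GRCm38.p6).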

Additional observations from a re-analysis of the deposited data

Results flagged for a closer look

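Each set tested held the 4 CPM values of 1 member in 1 WT group. Of 81 such sets, 10 held a tumor far from the other 3. A rate of 1 in 20, or 4.05 sets, would hold for independent and normally distributed values. These sets share the same tumors and were read in CPM without a log scale, so an excess over chance cannot be read from the 10. In oral WT tumor 4, Wnt3 was at 11.2 CPM, Wnt16 at 2.20 CPM and Fzd3 at 70.1 CPM, each the highest of its group. In oral WT tumor 3, Fzd1 was at 262 CPM and Fzd5 at 112 CPM. In oral WT tumor 1, Wnt10a was high at 35.9 CPM and Sfrp2 low at 8.13 CPM. In the pancreatic WT group, Wnt5a was at 45.5 CPM in tumor 2, and Ctnnb1 at 742 CPM and Sfrp2 at 4.22 CPM in tumor 4.

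The KO minus WT change was called lower in oral than in pancreatic tumors for 3 of 45 members by the interaction test of edgeR. Over all genes 4.85% were called lower and 7.41% higher, and 0 of the 3 member calls held in every alternative. The log2 difference was -1.04 for Wnt10a, -1.96 for Fzd2 and -1.65 for Dkk3.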

How the results depend on the processing

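No called member changed direction under any alternative run. In oral KO against WT, members called lower numbered 4 with DESeq2, 3 with apeglm shrinkage, 3 in a single fit of all 13 tumors, 0 with protein-coding genes alone and 0 with the replicate block, and leaving out 1 tumor gave 0 to 1 in either direction, where a lone KO tumor was assumed to vary like the others. In pancreatic KO against WT, members called higher numbered 1 with DESeq2, shrunken or not, and members called lower 2 with DESeq2, 0 with no count filter, with protein-coding genes alone, with thinned counts and in the single fit, and 0 in every case with 1 tumor left out. Between WT tumors, leaving out 1 tumor gave 11 to 17 members higher in oral tumors and 0 to 1 lower, and DESeq2 called 1 lower, shrunken or not. Between KO tumors, DESeq2 called 11 higher and 10 with shrinkage, protein-coding genes alone gave 3 lower, thinned counts and the single fit 4 each, and leaving out 1 tumor gave 3 to 6 higher and 2 to 6 lower. The interaction gave 1 lower with at least 10 counts in every tumor, 1 with thinned counts, 0 with protein-coding genes alone, 0 with the replicate block, and 0 to 4 with 1 tumor left out. In the KO site comparison, members called higher outnumbered those called lower with DESeq2, shrunken or not, with protein-coding genes alone and with thinned counts. The same held in the single fit and with at least 10 counts in every tumor. Genes at large leaned the same way in these runs. Members called lower were the more numerous in the main run and with the replicate block. The causes were not tested. Over the alternatives, the share of all genes called higher ranged from 0.0861% to 13.9% (oral KO against WT), 0.0178% to 1.6% (pancreatic KO against WT), 5.38% to 10.7% (WT tumors), 5.72% to 19.5% (KO tumors) and 2.51% to 10.6% (interaction). The share called lower ranged, in the same order, from 0.0489% to 6.26%, 0.0415% to 2.91%, 3.97% to 8.94%, 6.47% to 13.2% and 2.02% to 7.75%. Same-numbered tumors did not deviate together, with correlations from -0.0807 to 0.0278 except 0.318 for pancreatic number 1, and 1 of 3 pancreatic KO tumors and 0 of 4 oral WT tumors correlated best with their own number. With the replicate block, the count of members higher in oral WT tumors was 13, Wnt4 in place of Wnt3a was called lower in pancreatic KO tumors, and Lgr4 was called lower in oral than in pancreatic KO tumors. Under DESeq2 size factors 4 of 146 group mean levels moved by more than 1 SD, by ratios of 0.980 to 1.05. Wnt1 and Wnt8b had too few counts to be tested in any comparison, as had Wnt3, Wnt9b and Dkk1 in pancreatic KO against WT.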
